A study of Prunus dulcis with 36 samples.

Results

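Gibberellin-regulated protein 11-like, unigene TRINITY_DN26787_c1_g1 (DN26787_c1_g1 below), is a representative transcript sequence of a de novo almond assembly. It was taken by its ID as 1 of the 8676 unigenes in the deposited expression columns, and it was the only listed unigene of its assembly cluster (DN26787). All samples were whole fruitlets of the almond cultivar 'ZhiPi'. Abnormal fruits were those that had stopped growing and withered, and normal fruits were growing ones from the same branches. Both were collected at 12, 17, 22, 27, 32 and 37 days after flowering (DAF), which gives 12 groups of 3 replicates and 36 samples. The study describes the replicates as separate trees, each with several fruits pooled. The deposited value is the authors' mean over the replicates in normalized FPKM, a fragment count scaled to transcript length and library size. Since these means are the values analysed here, none of them carries a spread, standard deviation or P-value, and all that follows is a description.

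Gibberellins are growth hormones that promote cell division and cell elongation in young fruits, and they act by removing DELLA proteins, which hold growth-related transcription back. Gibberellin-regulated proteins (the GASA or snakin family, known from tomato, Arabidopsis and potato among others) are small secreted peptides with a cysteine-rich C-terminal domain. Transcripts of the family respond to gibberellin in either direction. Members in Arabidopsis, strawberry and potato are known for roles in cell growth, flowering, fruit size, redox state and defence against microbes. The role of the almond member is not known from these data.

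The forward RT-qPCR primer that the study designed for this unigene is shown because the primer pair is all the sequence held here for the transcript. It is 20 bases long with a GC content of 55%, it is given 5′ to 3′, and no part of it is singled out by capitals. The reverse primer is not printed, since the direction in which its letters are listed could not be checked.
DN26787_c1_g1 forward primer: ctttcaacaggaggtgcggt

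The transcript was scarce in the youngest fruits and more abundant at each later stage, in both fruit types. Over the 6 stages, youngest first, the mean level in abnormal fruits was 1.85, 5.09, 7.32, 21.0, 22.4 and 60.5 FPKM. In normal fruits it was 2.08, 2.83, 9.89, 42.7, 47.1 and 208 FPKM in the same order. The level at 37 DAF was 32.8 times that at 12 DAF in abnormal fruits and 99.7 times in normal fruits. On the scale of log2(FPKM + 1), where the added 1 damps changes of low values, these increases were 4.43 in abnormal and 6.08 in normal fruits. A larger increase between these stages was found for 228 listed unigenes in abnormal fruits and for 41 in normal fruits. An increase of more than 1 on this scale was found for 23.8% of the listed unigenes in abnormal and 25.7% in normal fruits. In whole fruits, more cells that make a transcript and more transcript per cell cannot be told apart.

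**Figure D1:**
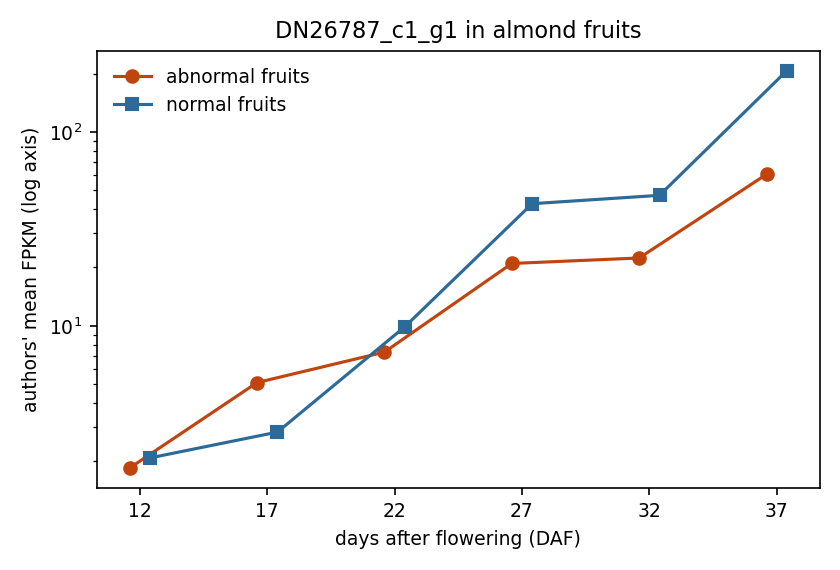
Authors' mean FPKM of gibberellin-regulated protein 11-like (DN26787_c1_g1) on a log axis against days after flowering, in abnormal (circles) and normal fruits (squares), drawn slightly apart at each stage. Both courses climb at every step, and they part from 27 DAF on, reaching 60.5 FPKM in abnormal fruits, against 208 FPKM in normal ones, at 37 DAF.

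The rank of the unigene among those listed moved with its level. At 12 DAF, 58.3% of the listed unigenes lay below it in abnormal fruits and 56.9% in normal fruits. At 37 DAF the shares were 90.6% in abnormal and 97.5% in normal fruits, where it stood at position 217 of 8676.

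Ordered from low to high, the group means ran from abnormal fruits at 12 DAF through normal 12, normal 17, abnormal 17, abnormal 22, normal 22, abnormal 27, abnormal 32, normal 27, normal 32 and abnormal 37 to normal fruits at 37 DAF. Some neighbours in this order were close. Abnormal fruits at 32 DAF exceeded abnormal fruits at 27 DAF by a factor of 1.07, normal fruits at 32 DAF exceeded normal fruits at 27 DAF by 1.10, and normal fruits at 12 DAF exceeded abnormal fruits at 12 DAF by 1.13. The widest gap was the last, a factor of 3.43 between normal and abnormal fruits at 37 DAF. Which of these neighbours differ beyond replicate spread was not tested. Set against the course of normal fruits, abnormal fruits at 27 and 32 DAF lay between the normal levels of 22 and 27 DAF, and abnormal fruits at 37 DAF lay between the normal levels of 32 and 37 DAF.

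The sign of the difference between fruit types was not the same at all stages. Whether the small early differences exceed replicate spread was not tested. Here and below, a difference between group means is in log2(FPKM + 1). It is called when it is larger than 1 in size. The study applies a cutoff of 1 to the log2 fold change itself, together with a P-value. The added 1 makes the call here stricter on size. At 12 DAF abnormal fruits had 1.85 FPKM, against 2.08 FPKM in normal fruits, a difference of −0.11 that was not called. Of all listed unigenes 13.8% were called higher and 16.9% lower in abnormal fruits at this stage. At 17 DAF abnormal fruits had the higher level, 5.09 FPKM against 2.83 FPKM in normal fruits, and the difference of 0.67 stayed below the threshold, while 18% of the listed unigenes were called higher and 23.5% lower. This was the only stage at which the level was higher in abnormal fruits. At 22 DAF the level was 7.32 FPKM in abnormal fruits, against 9.89 FPKM in normal ones. The difference of −0.39 was not called, and 7.09% of the listed unigenes were called higher and 14.6% lower.

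In the values as deposited, the level in abnormal fruits was less than 0.5 of that in normal fruits from 27 DAF on. At 27 DAF it was 21.0 FPKM in abnormal fruits, against 42.7 FPKM in normal ones, a ratio of 0.491, and the difference of −0.99 fell just short of the threshold. With a pseudocount of 0.1 the difference was −1.02, past the threshold. Scaling to the same total gave −0.81 and median-of-ratios scaling −0.71. At this stage 8.7% of the listed unigenes were called higher and 12.1% lower. At 32 DAF abnormal fruits had 22.4 FPKM and normal fruits 47.1 FPKM, a difference of −1.04 that was called, beside 9.58% of the listed unigenes called higher and 6.32% called lower. The values at 27 and 32 DAF lie on either side of the threshold by a small margin, so the calls should not be read as a change between these stages. At 37 DAF abnormal fruits had 60.5 FPKM and normal fruits 208 FPKM, and the difference of −1.76 was the largest of the 6. The ratio of abnormal to normal fruits was 0.292. At that stage 6.77% of the listed unigenes were called higher and 7.76% lower, and 349 unigenes, or 4.02%, had a lower difference than this one.

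**Figure D2:**
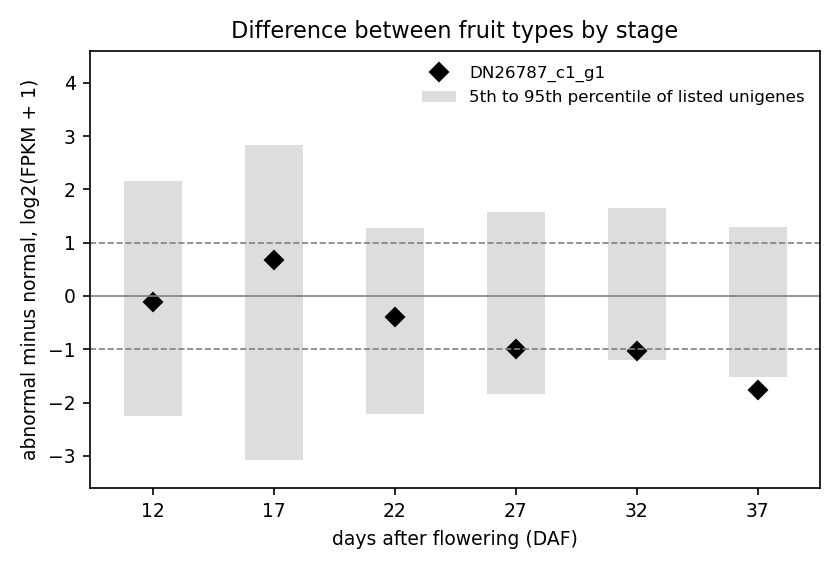
Difference between abnormal and normal fruits in log2(FPKM + 1) for DN26787_c1_g1 (diamonds) at each stage in days after flowering. Grey bars span the 5th to 95th percentile of all 8676 listed unigenes and dashed lines mark the threshold of 1. The unigene lies inside the bar up to 32 DAF and below it at 37 DAF, at −1.76.

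The later increases came at the same steps in both fruit types. The step to 27 DAF changed log2(FPKM + 1) by 1.40 in abnormal and 2.00 in normal fruits, and the step to 37 DAF by 1.40 in abnormal and 2.11 in normal fruits. In the step between these, to 32 DAF, the change was 0.09 in abnormal and 0.14 in normal fruits as deposited, and 0.22 in abnormal and 0.58 in normal fruits with median-of-ratios scaling. Scaling to the same total gave 0.03 in abnormal and 0.21 in normal fruits. Whether a step this small exceeds replicate spread was not tested. The early steps were of unequal size. The step to 17 DAF was 1.10 in abnormal and 0.31 in normal fruits, and the step to 22 DAF was 0.45 in abnormal and 1.51 in normal fruits. Of the 5 steps, 3 passed the threshold in each fruit type. The step to 17 DAF in abnormal fruits lost its call with a pseudocount of 5 (0.56) and with scaling to the same total (0.96), and the step to 22 DAF in normal fruits with a pseudocount of 5 (0.93). Of the listed unigenes, 14.5%, 19.3%, 23.2%, 9.98% and 13% passed it upward in abnormal fruits at these 5 steps, in order of age. In normal fruits 6.55%, 21.9%, 17.3%, 7.75% and 14.6% did.

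An increase at every step was uncommon among the listed unigenes. It was found for 26 of them (0.3%) in abnormal fruits, for 51 (0.588%) in normal fruits and for 6 (0.0692%) in both, of which gibberellin-regulated protein 11-like was 1. This count was made after the course of the unigene had been seen and applies no minimum to the size of a step. With each group scaled to the same total, 2 unigenes met it, and with median-of-ratios scaling 4 did, gibberellin-regulated protein 11-like among them under either scaling.

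The scaling of the groups bears on the middle stages. Median-of-ratios scale factors were taken over unigenes above 0 in all groups. The log2 ratio of the factor in abnormal to that in normal fruits was −0.18, −0.28 and −0.29 at 17, 22 and 27 DAF. Levels are divided by these factors, so the scaling raises abnormal relative to normal fruits at these stages. With this scaling the differences of the unigene at these stages were 0.85, −0.14 and −0.71, with no change of sign. At 37 DAF this scaling gave −1.73. The number of reads behind a value is not known, so the low levels at 12 and 17 DAF carry no counting interval.

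The other unigenes of the gibberellin pathway were sought in the part of the study's annotation held here, which names 1322 unigenes, 753 of them listed. A total of 5 had a name from this pathway and 2 of these were listed, 1 for synthesis and 1 for breakdown of the hormone. A unigene named ent-kaurene synthase (DN24508_c2_g2), which makes the hydrocarbon from which gibberellins are built, was at most 2.82 FPKM in abnormal fruits, against 5.77 FPKM in normal ones. It was listed at 0 in abnormal fruits at 12 DAF (difference −1.77), and its level at 17 DAF was 0.51 FPKM in abnormal fruits, against 5.77 FPKM in normal fruits (difference −2.17). At these low levels the later differences alternated in sign, with −1.70 at 27 DAF and 1.25 at 32 DAF called. None of these 4 differences was called with a pseudocount of 5, which gave −0.57, −0.97, −0.53 and 0.35 in order of stage.

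A unigene named gibberellin 2-beta-dioxygenase 8 (DN24592_c0_g1), after an Arabidopsis enzyme of the class that inactivates gibberellins, differed most between fruit types in the earliest samples. At 12 DAF its level was 32.2 FPKM in abnormal fruits, against 0.797 FPKM in normal ones, a difference of 4.21. At 17 DAF it was 101 FPKM in abnormal fruits, against 1.35 FPKM in normal ones, a difference of 5.44. From 22 to 37 DAF it was higher in abnormal fruits as well, by 0.87, 0.87, 0.87 and 0.50 in order of stage, and these were not called. With median-of-ratios scaling the values at 22 and 27 DAF, 1.12 and 1.11, were called. Its course over the 12 groups was unlike that of gibberellin-regulated protein 11-like (Pearson r = −0.06), which in the same samples at 12 DAF differed by −0.11. The remaining 3 names, a gibberellin 20-oxidase, a gibberellin 2-beta-dioxygenase 6 and the DELLA protein RGL1, were not analysed here.

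**Figure D3:**
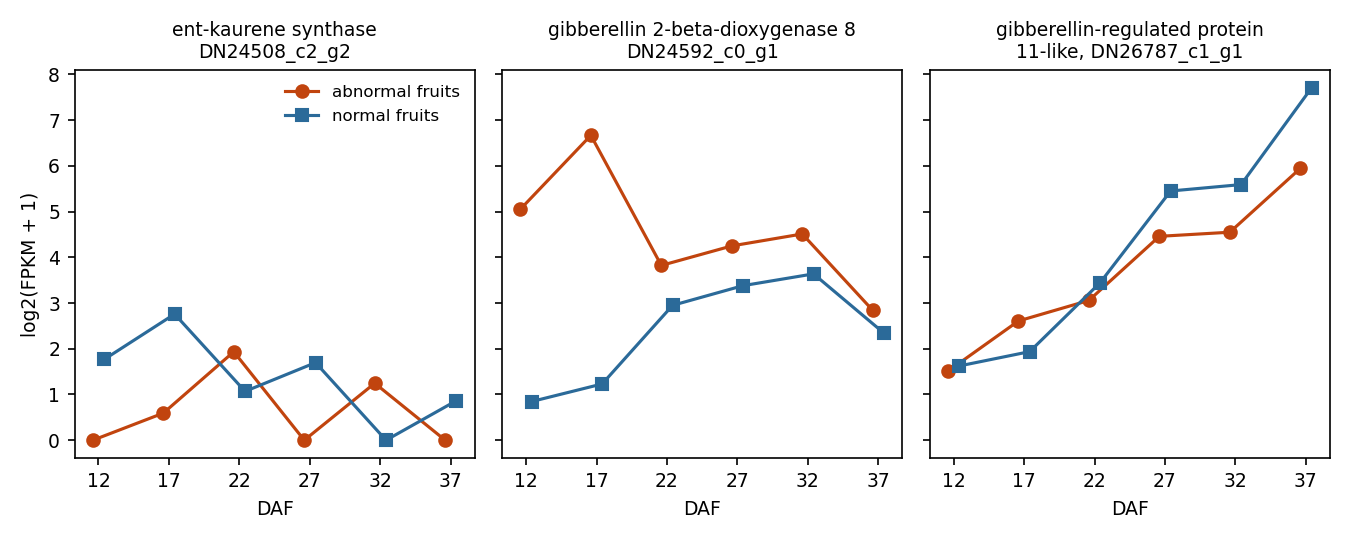
Levels in log2(FPKM + 1) of 3 gibberellin-related unigenes against days after flowering (DAF) in abnormal (circles) and normal fruits (squares). Ent-kaurene synthase stays low, gibberellin 2-beta-dioxygenase 8 is highest in abnormal fruits at 17 DAF (101 FPKM), and gibberellin-regulated protein 11-like climbs in both fruit types.

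Hormone-related unigenes that the study names with their IDs followed the unigene to different degrees. Auxin-induced protein 15A (DN18673_c0_g1) of the SAUR family, small proteins linked to cell expansion, had a Pearson r of 0.88 with it over the 12 groups, and its own levels ranged between 4.64 and 27.8 FPKM in abnormal fruits, against 4.77 and 27.7 FPKM in normal ones. IAA13, a repressor of the auxin response, gave 0.77 for DN26918_c0_g1 and 0.02 for DN26918_c0_g2. Abscisic acid receptors gave 0.77 for PYL8 (DN22391_c0_g1), 0.74 for PYR1 (DN24477_c0_g1) and 0.13 for DN23029_c0_g1, which the study calls PYL4 in 1 place and PYR1 in another. The study names these 6 unigenes from its own comparisons of the same samples, so counts of calls among them are a description and no test. At 12 DAF 2 of these 6 unigenes were called higher in abnormal fruits, beside 13.8% of all listed unigenes. At 17 DAF 2 were called lower, both of them IAA13, beside 23.5% of all listed unigenes. At 37 DAF 0 of the 6 were called, beside 6.77% of all listed unigenes called higher and 7.76% lower, so that a count of 0 among 6 does not set them apart.

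Likeness of pattern was measured as Pearson r of log2(FPKM + 1) over the 12 group means. The groups share their stages and are 2 series in time, so any unigene that climbs with age resembles this one, and r carries no P-value. Over the other 8675 listed unigenes the median r was 0.19, and 53 of them (0.611%) reached 0.9. The 10 most alike, taken from unigenes averaging 1 FPKM or more, had r between 0.94 and 0.96. They were chosen on these same group means, so the direction of their differences between fruit types follows in part from the choice and is given as a description. All 10 were higher in abnormal fruits at 17 DAF. At 27, 32 and 37 DAF, 10, 7 and 8 of them were lower in abnormal fruits. The share of all listed unigenes with these directions was not counted, so these counts have no background. At 37 DAF 0 of the 10 were lower by more than 1, beside 7.76% of all listed unigenes, which does not set them apart. Without normal fruits at 37 DAF, the group with the highest level, all 10 still had an r of at least 0.9. With median-of-ratios scaling 6 of them did.

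A name was held for 2 of these 10. The most alike (r = 0.96) was DN25428_c0_g2, named microtubule-associated protein 70-5, which in Arabidopsis is linked to secondary wall patterning in developing xylem vessels. Its level at 12 DAF was 0.122 FPKM in abnormal fruits, against 0.183 FPKM in normal ones, and at 37 DAF it was 8.34 FPKM in abnormal fruits, against 15.2 FPKM in normal ones. The other was DN15673_c0_g1 (r = 0.94), named pectinesterase 31, from the enzymes that remove methyl groups from cell wall pectin. Its level at 12 DAF was 65.4 FPKM in abnormal fruits, against 85.3 FPKM in normal ones, and at 37 DAF it was 190 FPKM in abnormal fruits, against 182 FPKM in normal ones. Among the 100 most alike, the further names were tubulin-folding cofactor C (DN17973_c0_g1, r = 0.91), the MADS-box protein AGL80 (DN16282_c0_g1, r = 0.91), a putative glycerol-3-phosphate transporter 4 (DN16556_c0_g1, r = 0.89) and a WEB family protein (DN13604_c0_g1, r = 0.88). AGL80 is known in Arabidopsis for central cell and endosperm development.

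**Figure D4:**
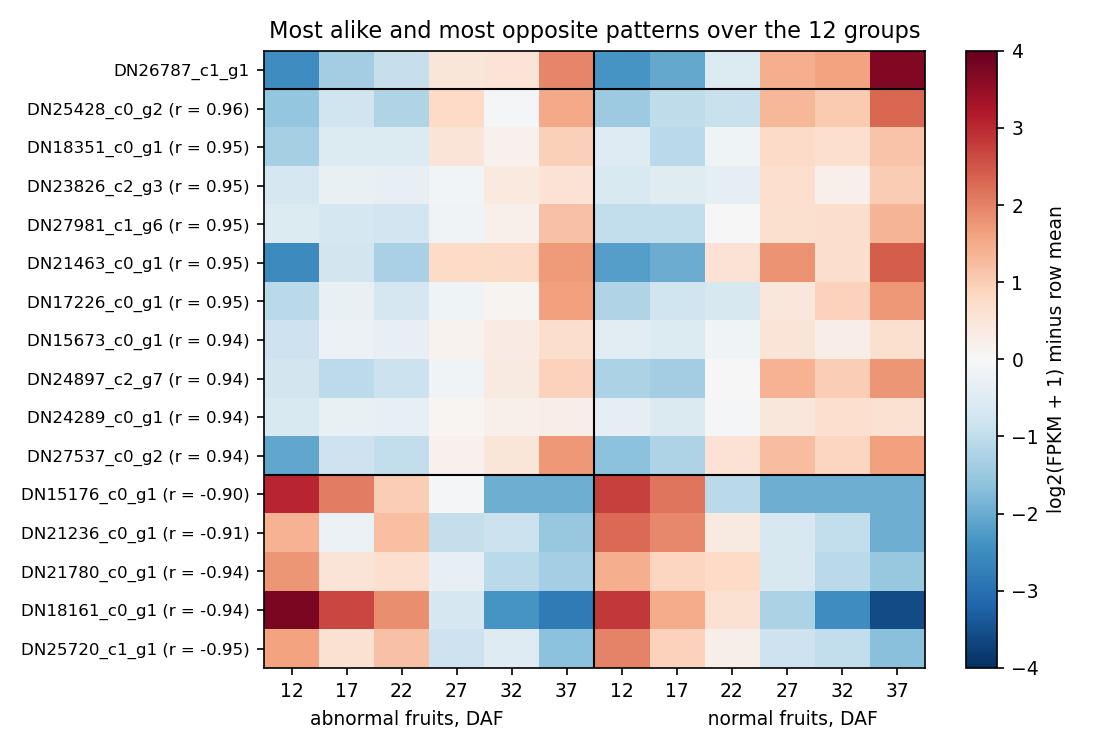
Log2(FPKM + 1) minus the row mean (colour) of gibberellin-regulated protein 11-like (top row), the 10 most alike unigenes and the 5 most opposite ones, in abnormal (left) and normal fruits (right) by days after flowering. In the top 11 rows colour shifts from blue at 12 DAF to red at 37 DAF in both panels, and the reverse holds in the lowest 5.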

How the data were processed

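Expression was measured by RNA sequencing of normal and abnormal almond fruits in 12 groups of 3 replicates. According to the methods, the authors assembled unigenes with Trinity, mapped reads to them by Bowtie2, counted by RSEM, used DESeq2 for normalization and derived FPKM by transcript length and depth. Each deposited value is an FPKM, the authors' mean of a group, and versions are not given in the sources used here. Columns were matched to groups by their names. FPKM was log2-transformed with a pseudocount of 1. No test was run, because replicate values were not used here. The number of reads per value is unknown.

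In at least 1 group, every listed unigene departs by 1.00 or more in log2(FPKM + 1) from its level in normal 12-DAF fruits, so shares refer to listed unigenes only. Of the unigene IDs, 0 matched the reference gene table, and names come from the study. Named unigenes are DN26787_c1_g1, the 10 highest and 5 lowest by r among the 5892 with a mean of at least 1 FPKM, those with a name among the 100 highest, the gibberellin list, and the hormone unigenes the study names. Keyword lists over the annotation cover auxin, ethylene, abscisic acid, pectin, small defence proteins, photosynthesis and seed. The unigene and all lists were chosen with earlier results of these data known. Alternatives were pseudocounts of 0.1 and 5, 2 scalings, a threshold of 2, Spearman's rho, subsets of groups and a minimum of 5 FPKM. The calculations were tested on simulated data. Python 3.11.15, numpy 2.4.6, pandas 2.3.3 and matplotlib 3.10.9 were used.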

Additional observations from a re-analysis of the deposited data

How the results depend on the processing

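Over 16 comparisons of the unigene and 5 alternatives, 80 values in all, 68 kept their side of the threshold. The sign never changed under the 2 scalings. Neither a pseudocount nor the threshold of 2 can change a sign, so those alternatives say nothing about it. At 27 DAF a pseudocount of 0.1 gave −1.02. At 32 DAF a pseudocount of 5 gave −0.93 and scaling to the same total −0.99. With a pseudocount of 5 the change from 17 to 22 DAF in normal fruits was 0.93 and that from 12 to 17 DAF in abnormal fruits 0.56, and scaling to the same total gave 0.96 for the second. Against a threshold of 2, the differences of −1.04 at 32 DAF and −1.76 at 37 DAF were not called, nor were the steps of 1.51 in normal fruits and of 1.10, 1.40 and 1.40 in abnormal fruits. The 53 unigenes with r of at least 0.9 became 25 with scaling to the same total, 17 with median-of-ratios scaling, 83 with Spearman's rho, 397 over the 6 normal and 237 over the 6 abnormal groups. Leaving out normal fruits at 37 DAF, chosen after seeing the data, gave 57. With a highest value of at least 5 FPKM, the share of unigenes called at 17 DAF was 46.3%, against 41.5% of all listed. No paired analysis was possible because the columns hold 1 mean per group, and leaving out replicates could not be run for the same reason.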

Other observations

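The 5 other unigenes that were higher at each later stage in both fruit types have no name in the annotation held here, and they were singled out after their values were seen. DN24391_c2_g5 had 149 FPKM in abnormal fruits at 37 DAF, against 155 FPKM in normal ones. DN31044_c0_g1 differed more at 37 DAF, with 5.66 FPKM in abnormal fruits, against 64.3 FPKM in normal ones. At 32 DAF it was at 3.01 FPKM in abnormal fruits, against 4.94 FPKM in normal ones. DN18645_c0_g1, DN24491_c1_g1 and DN28173_c2_g1 reached 10.1, 32.3 and 25.2 FPKM in abnormal fruits at 37 DAF, against 19.5, 40.5 and 22.5 FPKM in normal fruits.

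The 5 unigenes with the most opposite pattern had r between −0.95 and −0.90 and were lower at 37 than at 12 DAF in both fruit types. DN18161_c0_g1 was at 282 FPKM in abnormal fruits at 12 DAF, against 147 FPKM in normal ones, and at 37 DAF at 1.92 FPKM in abnormal fruits, against 0.748 FPKM in normal ones. The only 1 of them with a name, DN15176_c0_g1, is called major pollen allergen Ole e 6. Its level at 12 DAF was 30.9 FPKM in abnormal fruits, against 24.7 FPKM in normal ones, and it was listed at 0 in both at 37 DAF.

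Of the keyword lists, pectin enzymes and inhibitors had 9 of 11 names listed. At 17 DAF, 5 of these 9 were higher in abnormal fruits by more than 1 and 1 was lower, beside 18% and 23.5% of all listed unigenes. Their median difference at that stage was 1.15, against 0 over all listed unigenes. Among the 5, DN13942_c0_g1 was at 41.3 FPKM in abnormal fruits at 17 DAF and at 0 in every other group. It is listed only through that level, so the count and the median are a description and no test. Of these 9, 0 were higher and 1 lower at 12 DAF, 1 higher and 2 lower at 22 DAF. At 32 DAF 0 were higher and 1 lower, and at 27 and 37 DAF 0 were called. The shares of all listed unigenes called higher and lower were 13.8% and 16.9% at 12 DAF and 7.09% and 14.6% at 22 DAF. They were 8.7% and 12.1% at 27 DAF, 9.58% and 6.32% at 32 DAF, and 6.77% and 7.76% at 37 DAF. Counts this small among 9 do not set these names apart at those stages. Among the 9 pectin names, pectinesterase 31 (0.94) and a putative invertase inhibitor, DN14218_c0_g1 (0.82), had an r of at least 0.8 with gibberellin-regulated protein 11-like. A unigene named pectinesterase 58, DN26340_c0_g1, had −0.89. Ethylene names had 9 of 13 listed, of which abnormal fruits had 4 higher and 0 lower at 12 DAF, then 1 higher and 3 lower at 17 DAF. Of all listed unigenes, 13.8% were higher and 16.9% lower at 12 DAF, and 18% were higher and 23.5% lower at 17 DAF. Among the ethylene names, DN15960_c0_g1 was above 0 only in abnormal fruits at 12 DAF (2.74 FPKM). DN12318_c0_g1 was above 0 only in normal fruits at 17 DAF (51.1 FPKM). Both are listed only through the groups in which these counts include them. Auxin names had 5 of 8 listed, with 1 higher and 2 lower at 17 DAF. Abscisic acid names had 1 of 2 listed, the receptor DN23029_c0_g1 given above. Small defence proteins had 5 of 8 listed, 1 of which is again DN23029_c0_g1, and pathogenesis-related protein 1 (DN16394_c0_g1) had an r of 0.85 with the unigene. The other 3 were a lipid-transfer protein (DN13952_c0_g1) at 0.67, a thionin-like protein 2 (DN16522_c0_g1) at −0.28 and a putative lipid-transfer protein (DN14988_c0_g1) at −0.79. As a check of the labelled tissue, 3 of 4 photosynthesis names were listed, and they were not alike. A high-light-induced chloroplast protein (DN13843_c0_g1) had between 101 and 557 FPKM in abnormal fruits, against 119 to 417 FPKM in normal ones. A photosystem I subunit (DN12440_c0_g1) was at most 2.37 FPKM in abnormal fruits, against 1.91 FPKM in normal ones, and a light-harvesting protein (DN12540_c0_g1) at most 2.10 FPKM in abnormal fruits, against 2.82 FPKM in normal ones. Both were listed at 0 in all groups from 27 DAF on. Seed names had 10 of 12 listed, with levels as unequal. The provicilin unigene DN13930_c0_g1 was at most 1.91 FPKM in abnormal fruits, against 0.879 FPKM in normal ones. A unigene named YLS9 (DN24970_c1_g1), listed here by its late embryogenesis abundant domain, had between 574 and 1386 FPKM in abnormal fruits, against 282 to 1590 FPKM in normal ones. A unigene of the seed storage and lipid-transfer family (DN15649_c0_g1) had between 13.2 and 306 FPKM in abnormal fruits, against 72.7 to 321 FPKM in normal ones.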
